A study of Mus musculus with 6 samples.

Results

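NG2, the chondroitin sulfate proteoglycan encoded by *Cspg4*, is carried in the brain by vascular mural cells, that is pericytes (PC) and vascular smooth muscle cells, and also by oligodendrocyte progenitor cells (OPC). *Cspg4* and genes of the oligodendrocyte lineage were therefore followed together as 33 genes named by symbol. Of these, 32 had a value among the 33460 genes of the files, and *Lhfpl3* was not analysed here. Levels are given as FPKM, a measure scaled to transcript length and library size, so that levels of different genes can be set side by side. Genes were tested where 3 or more of the 6 samples reached an FPKM of 1. This left 14801 genes and 28 of the 33 members, while *Neu4*, *Ugt8a*, *Mog* and *Ermn* were too low.

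All 6 samples were brain RNA from mice at postnatal day 6 that carried both the *Pdgfrb-eGFP* transgene (line Tg(Pdgfrb-eGFP)JN169Gsat/Mmucd) and the *NG2-DsRed* transgene. The 3 mural cell samples were cells positive for both reporters, sorted by FACS. The 3 samples of microvascular fragments were pieces of vessel captured with magnetic beads against CD31, which hold endothelial cells with their mural cells attached. The study cut each brain of 3 mice along the midline and gave 1 side to each preparation. Each reporter follows a promoter that is also active outside mural cells: DsRed alone marks OPC, and eGFP alone marks other cells near the ventricles, so the sort required both. Because DsRed is driven by the NG2 promoter, a high *Cspg4* level in the sorted cells is tied to how they were chosen. The same holds for *Pdgfrb*, whose promoter drives eGFP. The p-values below measure only the spread between these samples.

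Progenitors of the oligodendrocyte lineage are specified and maintained by transcription factors of the Olig, Sox and Nkx families. They surround themselves with lecticans, proteoglycans that bind hyaluronan and are joined to it by link proteins. As they differentiate they pass through a premyelinating stage and then wrap axons in myelin, a membrane stack held together by proteins such as myelin basic protein. Several of these genes are not exclusive to the lineage: astrocytes also make brevican, neurocan and the receptor phosphatase encoded by *Ptprz1*.

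The sorted cells carried mural cell markers, and all 12 on the list (*Pdgfrb*, *Rgs5*, *Kcnj8* and others) were called higher in them, with a median ratio of mean FPKM of 9.26. A gene was called higher or lower in mural cells when the ratio of mean FPKM passed 2 or fell below 0.5 with a limma adjusted p under 0.05. By this rule 6.43% of all tested genes were called higher and 10.1% lower. All 8 microglia markers were lower (median ratio 0.0859). Of the 12 endothelial markers only *Ly6c1* was lower, and their summed FPKM was 1776.1 to 2296.1 in mural cells against 2419.3 to 2826.0 in fragments. Of the 8 tested neuron markers and the 8 proliferation genes none was called, with median ratios of 0.556 and 0.693. Depth differed between the preparations, with about 5420000 to 5960000 sequenced fragments on protein-coding genes in the microvascular samples, 2360000 in mural replicate 1, and 1030000 and 1050000 in mural replicates 2 and 3. A low value in the mural samples therefore rests on fewer sequenced fragments.

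The stretches of DNA just before the start sites of 3 members are shown because these genes mark the ends of the pattern described below. *Cspg4* was the only member called higher in mural cells, *Ncan* had the highest level among the lecticans, and *Mobp* was listed at 0 in every mural sample. Each is the 250 bases before the RefSeq start (sequence from the GRCm38.p6 table, read 5′ to 3′ in the direction of the gene), and the position is where the same sequence was found in NCBIM37, the build of the files. *Cspg4* lies on the plus strand of chromosome 9 (chr9:56712911-56747677, 10 exons), and its window is chr9:56712661-56712910. *Ncan* lies on the minus strand of chromosome 8, with the window at chr8:72644744-72644993, of which 29 bases fall in the first exon of the annotation used for the files. *Mobp* lies on the plus strand of chromosome 9, with the window at chr9:120058610-120058859. Capitals mark 2 motifs searched on both strands: the core bound by SOX factors, ACAAAG or its complement CTTTGT, and the E-box CAGCTG.
Cspg4: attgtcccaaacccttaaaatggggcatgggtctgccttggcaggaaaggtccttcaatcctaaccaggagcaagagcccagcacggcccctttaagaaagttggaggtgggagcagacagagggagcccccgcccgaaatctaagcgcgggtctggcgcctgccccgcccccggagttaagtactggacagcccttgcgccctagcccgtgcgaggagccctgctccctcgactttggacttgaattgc
Ncan: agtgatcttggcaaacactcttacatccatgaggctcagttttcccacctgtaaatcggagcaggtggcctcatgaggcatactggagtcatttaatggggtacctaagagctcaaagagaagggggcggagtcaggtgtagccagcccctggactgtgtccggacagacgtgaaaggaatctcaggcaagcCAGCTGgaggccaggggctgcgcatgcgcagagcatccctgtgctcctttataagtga
Mobp: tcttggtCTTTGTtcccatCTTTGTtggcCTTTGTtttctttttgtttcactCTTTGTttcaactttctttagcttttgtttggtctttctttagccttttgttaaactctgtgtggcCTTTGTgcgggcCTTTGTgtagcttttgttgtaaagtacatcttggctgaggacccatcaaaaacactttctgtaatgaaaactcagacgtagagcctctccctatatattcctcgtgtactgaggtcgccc

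The *Cspg4* window held neither motif, the *Ncan* window held 1 E-box, and the *Mobp* window held 6 SOX cores. Among 32851 promoter windows of this length in the RefSeq table, 16.5% held the SOX core and 13.0% the E-box, and the *Mobp* window was the only 1 with 6 or more SOX cores. Of 24 members with an entry in the table, 5 held the SOX core and 2 the E-box in at least 1 window. A match describes these letters and is not evidence of binding.

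Of the 28 tested members, 1 was called higher in mural cells (*Cspg4*) and 4 were called lower (*Mbp*, *Mag*, *Mobp* and *Enpp6*). Over all tested genes, 6.43% were called higher and 10.1% were called lower. Of the members called lower, *Mag*, *Mobp* and *Enpp6* passed the filter through their values in fragments. The other 23 tested members were not called. The samples of the 2 preparations did not overlap for 3 members that were higher in mural cells (*Cspg4*, *Sox6* and *Vcan*) and for 5 that were lower (*Enpp6*, *Mag*, *Mbp*, *Mobp* and *Sirt2*), against 16.5% and 24.5% of all tested genes. The median ratio was 1.02 over the 32 members, 1.07 over the 28 tested members and 0.943 over all tested genes.

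**Figure D1:**
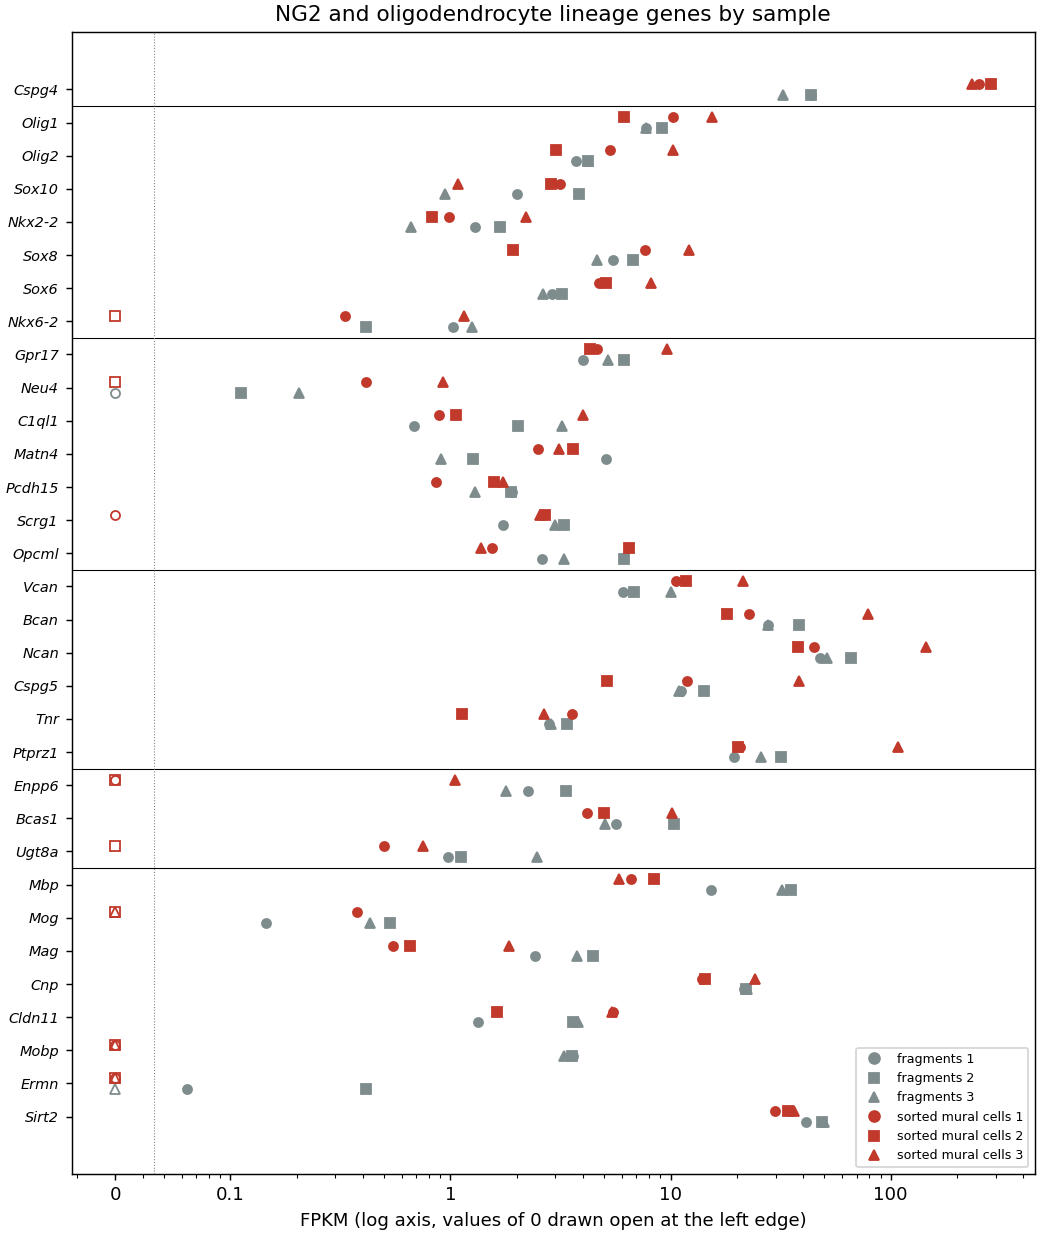
FPKM of the 32 members with a value in each of the 6 samples, on a log axis with values of 0 drawn open at the left edge. Grey symbols are microvascular fragments and red symbols sorted mural cells, with circles, squares and triangles for replicates 1, 2 and 3. *Cspg4* stands apart at 235 to 285 in mural cells, the 3 mural values of *Mobp* are at 0, and the red triangle of mural replicate 3 is the rightmost mural symbol for 21 of the 32 genes.

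*Cspg4* was by far the most abundant member in mural cells. Its FPKM was 43.3, 43.4 and 32.5 in fragments and 252, 285 and 235 in mural cells. Every mural sample was above every fragments sample, and the 3 mural values lay close together. The means were 39.7 ± 6.24 and 257 ± 25.5 (SD, n = 3 each), a ratio of 6.47 and a log2 difference of 2.67 (SE 0.15, limma adjusted p = 8.5e-05). The level of *Cspg4* was 24.2 times that of *Olig1*, a defining OPC factor, in mural cells and 4.85 times in fragments. *Pdgfra*, the growth factor receptor of OPC that fibroblasts also carry, had an FPKM of 7.39, 8.49 and 7.92 in fragments and 11.9, 12.9 and 13.2 in mural cells. Its groups did not overlap, but the ratio of 1.59 stayed under 2-fold (log2 difference 0.61, SE 0.18, limma adjusted p = 0.048). Of the 7 tested fibroblast markers, 4 were called higher in mural cells (*Col1a1*, *Col1a2*, *Dcn* and *Lum*), against 6.43% of all tested genes. The median ratio over the list was 6.17. Besides *Pdgfra*, *Col15a1* and *Slc6a13* were not called, with ratios of 0.620 and 2.19. The study lists *Col1a2*, but not *Col1a1*, *Dcn* or *Lum*, among its brain mural cell-enriched genes, a catalogue that draws in part on these data. Whether the levels of these genes came from fibroblast or mural RNA was not tested.

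The neighbourhood of *Cspg4* on chromosome 9 was described because the locus supplies the promoter of the reporter. Within 200 kb lay 8 other genes, all tested, and 4 of them were called higher in mural cells, against 6.43% of all tested genes. *Snx33*, a sorting nexin whose body begins 17.3 kb beyond the end of *Cspg4*, had an FPKM of 62.2, 69.7 and 60.5 in fragments and 337, 532 and 393 in mural cells (ratio 6.56, limma adjusted p = 1.3e-04). *Ptpn9*, a tyrosine phosphatase 95.1 kb away, had an FPKM of 24.0, 27.8 and 24.3 in fragments and 71.9, 72.9 and 73.4 in mural cells (ratio 2.86, limma adjusted p = 2.3e-04). For both genes all mural samples were above all fragments samples. *Imp3* and *Odf3l1* were also higher, with ratios of 2.16 and 2.13 (limma adjusted p = 0.0026 and 0.0031). *Lingo1*, *Snupn*, *Gm10658* and *Sin3a* were not called, with ratios of 1.80, 1.42, 0.749 and 0.645.

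**Figure D2:**
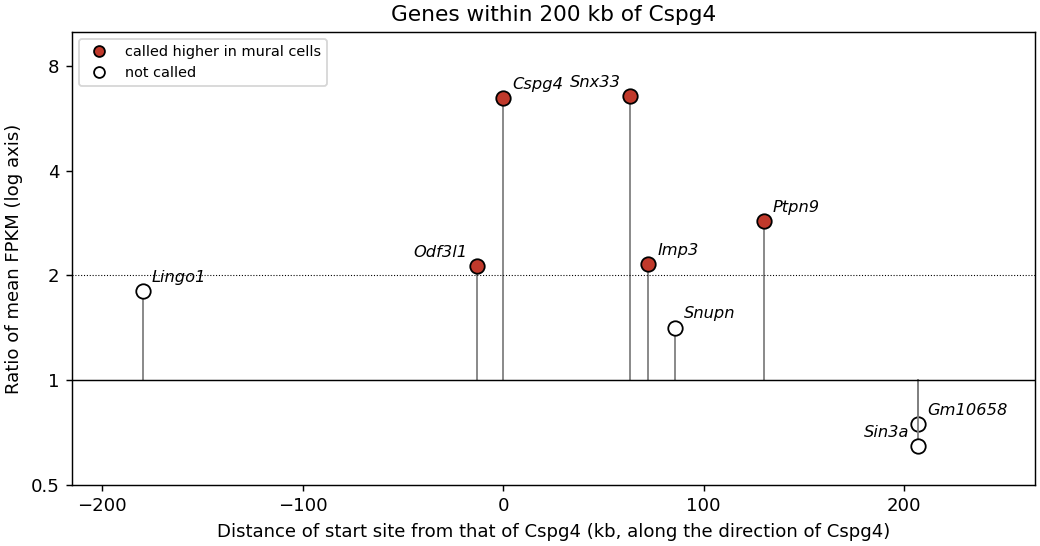
Ratio of mean FPKM, mural cells over fragments, on a log axis, for *Cspg4* and the 8 genes within 200 kb, placed by the distance in kb of each start site from that of *Cspg4*. Filled points were called higher in mural cells and open points were not called; the dotted line marks a ratio of 2. *Cspg4* (6.47) and *Snx33* (6.56) are the tallest points.

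None of the 7 transcription factors of the lineage was called in either direction. *Olig1*, a basic helix-loop-helix factor of the lineage, had an FPKM of 7.77, 9.10 and 7.74 in fragments and 10.3, 6.13 and 15.5 in mural cells. The mural values lay on both sides of the fragments values (ratio 1.30, log2 difference 0.26, SE 0.32, limma adjusted p = 0.61). These mural values rest on 36, 9 and 24 sequenced fragments, and their exact 95% Poisson intervals, which cover counting error only, ran from 7.22 to 14.3, from 2.81 to 11.7 and from 9.91 to 23.0. *Olig2*, its partner factor and neighbour 41.1 kb away on chromosome 16 with no protein-coding gene between, had an FPKM of 3.72, 4.22 and 4.23 in fragments and 5.29, 3.00 and 10.2 in mural cells (ratio 1.52, limma adjusted p = 0.54). Both genes had the same order of mural samples, with replicate 3 highest and replicate 2 lowest.

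*Sox8*, a SOX factor of the same group as *Sox10*, had an FPKM of 5.46, 6.74 and 4.64 in fragments and 7.66, 1.9203 and 12.1 in mural cells, again on both sides (ratio 1.29, limma adjusted p = 0.93). *Sox6*, which holds progenitors back from differentiation, had an FPKM of 2.91, 3.23 and 2.64 in fragments and 4.71, 5.06 and 8.17 in mural cells. The 3 mural values were all above the fragments values, with a ratio of 2.05 (log2 difference 0.80, SE 0.28), but the limma adjusted p of 0.081 missed the threshold. *Sox6* was called with quantile normalization (log2 difference 1.08, adjusted p = 0.029) and without the intensity trend in limma (adjusted p = 0.0497). *Sox10*, a factor needed for myelin gene expression, had overlapping groups with means of 2.26 ± 1.47 in fragments and 2.36 ± 1.11 in mural cells (SD, n = 3 each). *Nkx2-2* and *Nkx6-2*, homeodomain factors of the lineage, also overlapped, with ratios of 1.10 and 0.551.

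Membrane and secreted products of progenitors were low, and none of the 6 tested was called. *Gpr17*, a receptor of committed progenitors, had the highest mean of the group, with an FPKM of 3.99, 6.16 and 5.21 in fragments and 4.62, 4.30 and 9.65 in mural cells. Mural replicates 1 and 2 lay within the range of the fragments and replicate 3 above it (ratio 1.21, log2 difference 0.17, SE 0.34, limma adjusted p = 0.76). *C1ql1*, *Matn4*, *Pcdh15*, *Scrg1* and *Opcml* had ratios of 1.00, 1.27, 0.823, 0.654 and 0.783, and *Neu4* stayed below an FPKM of 1 in every sample. In all, the 14 members not given sample by sample lay between an FPKM of 0 and 6.50, and 10 of them were tested. Groups overlapped for 13 of the 14. Over all tested genes, groups did not overlap for 16.5% with higher and 24.5% with lower mural values. Many values of the 14 were near 0, so the count of 13 says little about these genes.

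None of the 6 lecticans and partners was called. Their median ratio was 1.45, and 0.765 without mural replicate 3. *Ncan*, which encodes neurocan, had an FPKM of 47.9, 65.9 and 51.3 in fragments and 45.0, 37.8 and 145 in mural cells. Mural replicates 1 and 2 were below all fragments samples and replicate 3 was above them all (ratio 1.38, limma adjusted p = 0.79). The 3 mural values rest on about 557, 197 and 799 sequenced fragments, with exact 95% Poisson intervals of 41.3 to 48.9, 32.8 to 43.5 and 135 to 156.

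*Bcan*, which encodes brevican, repeated this order with an FPKM of 27.8, 38.4 and 27.6 in fragments and 22.8, 18.0 and 79.0 in mural cells (ratio 1.28, limma adjusted p = 0.96). Its 95% Poisson intervals in mural cells were 19.0 to 27.2, 12.9 to 24.4 and 68.3 to 91.2. *Cspg5*, which encodes neuroglycan C, had an FPKM of 11.1, 14.2 and 10.95 in fragments and 11.8, 5.13 and 38.4 in mural cells (ratio 1.53, limma adjusted p = 0.88). As for *Bcan*, replicate 3 was the highest of the 6 samples and replicate 2 the lowest. *Ptprz1*, a receptor phosphatase that binds pleiotrophin, had an FPKM of 19.5, 31.7 and 25.6 in fragments and 20.8, 20.3 and 108 in mural cells, so that mural replicate 3 was 5.25 times the mean of replicates 1 and 2 (ratio 1.94, limma adjusted p = 0.61).

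*Vcan*, which encodes versican and is also made by vascular cells, was the only 1 of these 6 members with groups that did not overlap. Its FPKM was 6.11, 6.80 and 10.02 in fragments and 10.5, 11.7 and 21.3 in mural cells, the lowest mural value lying just above the highest fragments value (ratio 1.90, log2 difference 0.81, SE 0.31, limma adjusted p = 0.11). *Tnr*, whose product tenascin-R binds lecticans, had overlapping groups and a ratio of 0.813.

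The matrix around lecticans was covered by 12 tested genes (growth factors, link proteins, enzymes of hyaluronan and chondroitin sulfate synthesis). Of these, 4 were called higher and 0 lower, against 6.43% and 10.1% of all tested genes. The median ratio was 1.41 over the 12 and 1.11 without mural replicate 3. *Mdk* and *Ptn*, which encode midkine and pleiotrophin, the ligands of the *Ptprz1* product, had ratios of 4.85 and 4.07 (limma adjusted p = 6.0e-04 and 4.4e-04). *Ptn* was abundant, with an FPKM of 117.8, 134.7 and 87.8 in fragments and 504, 383 and 498 in mural cells, and all mural samples were above all fragments samples. *Chst3*, a chondroitin sulfotransferase, and the link protein gene *Hapln3* had ratios of 3.43 and 2.54 (limma adjusted p = 0.026 and 0.040). The link protein genes each lie beside a lectican gene with no protein-coding gene between: *Hapln2* is 21.4 kb from *Bcan*, *Hapln4* 2.22 kb from *Ncan*, *Hapln1* 43.5 kb from *Vcan* and *Hapln3* 0.041 kb from *Acan*. *Hapln2*, named here after its values were seen, was listed at 0, 0 and 0.1005 in fragments and at 0, 0 and 3.96 in mural cells, so that its signal came almost wholly from mural replicate 3.

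Of the 8 tested members of the premyelinating and myelin groups, 4 were called lower in mural cells and none was called higher. Over all tested genes these shares were 10.1% and 6.43%. Of the 4, *Mobp*, *Mag* and *Enpp6* passed the filter through their values in fragments, so the count is partly set by the filter. With the filter at FPKM 5, *Mbp* was the only member called lower. *Mbp*, which encodes myelin basic protein, had an FPKM of 15.3, 35.1 and 32.01 in fragments and 6.58, 8.40 and 5.84 in mural cells. Every mural sample was below every fragments sample, and the fragments spread more widely. The means were 27.5 ± 10.7 and 6.94 ± 1.32 (SD, n = 3 each), a ratio of 0.253 and a log2 difference of -1.77 (SE 0.33, limma adjusted p = 0.0081). In bulk RNA, fewer cells of a type and less RNA per cell cannot be told apart. *Mobp*, which encodes another protein of compact myelin, had an FPKM of 3.60, 3.57 and 3.27 in fragments and was listed at 0 in all 3 mural samples. On the longest of its 5 transcripts, 3 sequenced fragments would set a limit of 0.549, 1.31 and 1.24 FPKM in mural replicates 1, 2 and 3. The mean in fragments was 3.38 times the average limit of 1.03 (limma adjusted p = 0.0012 on the log2 scale). This fold is not a strict lower bound, since the limit of replicates 2 and 3 was higher and a shorter transcript would raise it. *Mobp* passed the filter only through its values in fragments.

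*Mag*, which encodes a myelin protein facing the axon, had an FPKM of 2.42, 4.43 and 3.74 in fragments and 0.549, 0.653 and 1.85 in mural cells. The groups did not overlap (ratio 0.288, log2 difference -1.20, SE 0.35, limma adjusted p = 0.049). *Enpp6*, a marker of newly formed oligodendrocytes, had an FPKM of 2.24, 3.35 and 1.78 in fragments and 0, 0 and 1.05 in mural cells (log2 difference -1.42, SE 0.39, limma adjusted p = 0.038). Of the mural samples, only replicate 3 reached an FPKM of 1 for either gene, so both passed the filter through their values in fragments. Both calls missed the threshold when any 1 of 5 libraries was left out. The log2 difference then stayed between -1.04 and -1.39 for *Mag* and between -1.24 and -1.56 for *Enpp6*. Without fragments replicate 1, 2 or 3 the adjusted p was 0.109, 0.221 and 0.203 for *Mag* and 0.166, 0.209 and 0.133 for *Enpp6*, and without mural replicate 1 or 2 it was 0.0991 and 0.0986 for *Mag* and 0.0808 and 0.0836 for *Enpp6*. Both genes kept their calls without mural replicate 3 (adjusted p = 0.022 and 0.013).

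*Sirt2*, a deacetylase abundant in myelin, had an FPKM of 41.3, 49.0 and 49.7 in fragments and 29.7, 34.1 and 36.4 in mural cells. The mural values were all lower, and although the limma adjusted p was 0.049 (log2 difference -0.47, SE 0.14), the ratio of 0.716 stayed inside 2-fold. *Cnp*, which encodes a phosphodiesterase of myelin, had an FPKM of 21.6, 21.9 and 22.4 in fragments and 13.9, 14.3 and 24.1 in mural cells, with mural replicate 3 above all fragments samples (ratio 0.795, limma adjusted p = 0.31). *Bcas1*, a marker of early myelinating cells, had an FPKM of 5.66, 10.4 and 5.06 in fragments and 4.18, 4.96 and 10.1 in mural cells, with overlapping groups (ratio 0.913, limma adjusted p = 0.83). *Cldn11*, the claudin of myelin tight junctions, had a ratio of 1.44 with overlapping groups. *Mog*, *Ermn* and *Ugt8a* were too low to test, *Ermn* was listed at 0 in all mural samples, and its mean of 0.159 in fragments was below the 3-fragment limit, so no fold is given.

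Other genes of the lineage were counted in lists. Of 17 tested progenitor genes outside the members, *Susd5* and *Traf4* were called higher (ratios 15.02 and 3.32) and *Megf11* lower (ratio 0.288). The median ratio over the 17 was 0.979. The mural values of *Susd5* were uneven, at 3.07, 12.8 and 19.7. The study lists *Susd5*, and also *Ptn*, *Ptpn9* and *Atp1b2*, in its catalogue of brain mural cell-enriched genes. That catalogue also holds *Fgfr3*, an astrocyte marker here, and *Stmn2*, a neuron marker here. Their ratios were 2.00 and 0.511, and neither was called. Of 11 tested myelinating genes, *Tspan15* was higher (ratio 2.95) and *Cdk18*, *Nfasc* and *Mal* were lower (ratios 0.140, 0.299 and 0.465), with a median of 0.539 over the 11. Of 5 tested Schwann cell markers, *Mbp* and *Egr2* were lower (median ratio 0.280 over the 5). Over all tested genes, 6.43% were called higher and 10.1% lower. The counts in these lists are small, and no list was tested as a set.

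The comparison of the mural samples with one another showed replicate 3 apart from the others for these genes. The 32 members here include *Neu4*, *Ugt8a*, *Mog* and *Ermn*, which were not tested. Replicate 3 was the highest mural sample for 21 of 32 members (65.6%), against 31.8% of all tested genes. Its value divided by the mean of replicates 1 and 2 had a median of 1.91 over the 29 members where this could be formed, and of 0.966 over all tested genes, and it exceeded 2 for 14 of the 29 (48.3%) against 9.04%. The ratio was 4.53 for *Cspg5*, 3.88 for *Bcan*, 3.50 for *Ncan*, 2.46 for *Olig2* and 1.88 for *Olig1*, but 0.876 for *Cspg4*, 0.780 for *Mbp* and 0.361 for *Sox10*. By role, replicate 3 was highest for 6 of 7 transcription factors, 5 of 6 lecticans and partners and all 3 premyelinating genes. It was highest for 4 of 7 progenitor membrane and secreted genes and 3 of 8 myelin genes. Some of these orders rest on very few sequenced fragments. *Ugt8a* had 2 in mural replicate 3 and 3 in replicate 1. *Nkx6-2* (1.16) and *Enpp6* (1.05) in replicate 3 were below the limit set by 3 sequenced fragments (2.23 and 1.18).

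Astrocyte markers moved in the same way. Of the 12 on the list, 10 were highest in mural replicate 3, with a median ratio to the mean of replicates 1 and 2 of 3.09. Their summed FPKM was 617.0, 560.4 and 1226.5 in mural replicates 1, 2 and 3 and 676.8 to 767.2 in fragments, and *Gjb6* was the only 1 of them at 0 in any sample (mural replicate 3). The summed FPKM of the lecticans and partners was 114.5, 94.1 and 394.3 in the mural samples and 115.3 to 160.3 in fragments, and that of the 7 transcription factors was 32.4, 19.8 and 50.4 against 22.1 to 29.2. The myelin genes together summed to 56.6, 59.1 and 73.6 in mural cells and to 85.7, 118.5 and 115.3 in fragments. The 12 mural cell markers summed to 4564.2, 5444.2 and 4240.1 in mural replicates 1, 2 and 3. Of the 12 astrocyte markers only *Atp1b2* was called between the groups (higher, ratio 4.36). Over all tested genes, 6.43% were called higher and 10.1% lower. The part of astrocyte RNA in the levels of these members was not tested.

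**Figure D3:**
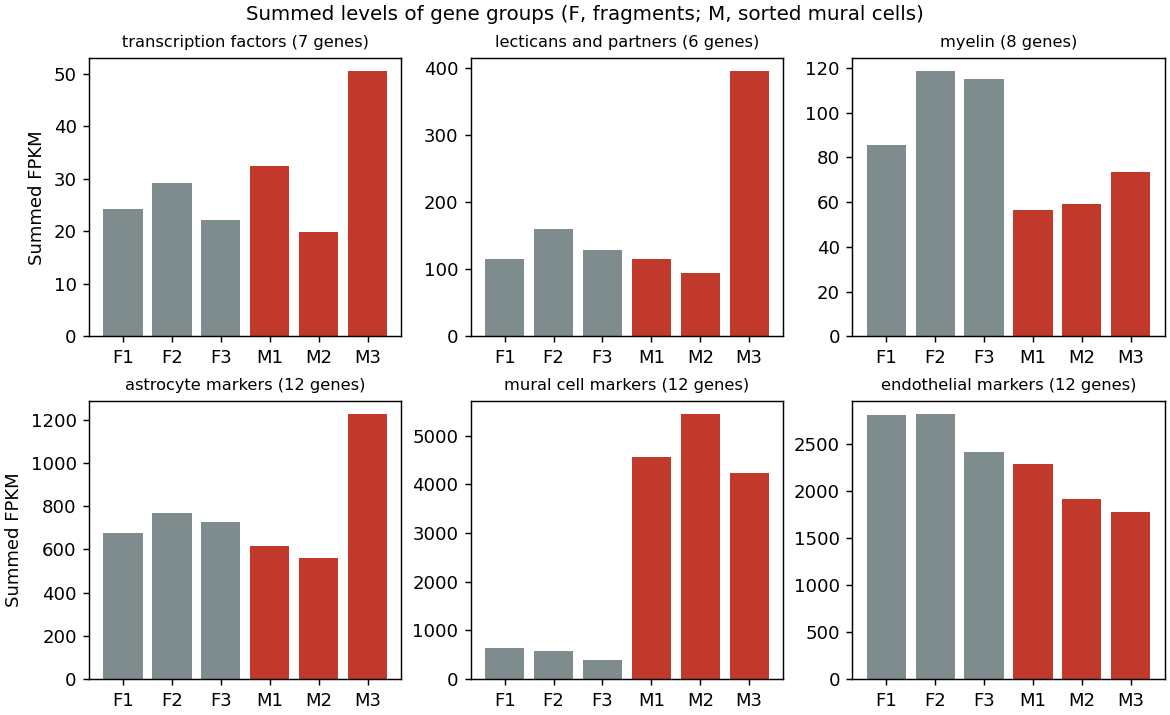
Summed FPKM of 3 groups of members (upper panels) and 3 lists of cell type markers (lower panels) in each sample, where F1 to F3 are microvascular fragments and M1 to M3 sorted mural cells; each panel has its own axis from 0. The bar of M3 is the tallest for transcription factors (50.4), lecticans and partners (394.3) and astrocyte markers (1226.5), while the 3 mural bars of the myelin genes are all below the fragments bars.

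Leaving out mural replicate 3 changed the side on which many members fell, although not the calls. The ratio was above 1 for 17 of 32 members with all samples and for 10 without this library. The median over the 32 members went from 1.02 to 0.733, and over the tested members from 1.07 to 0.749. Over all tested genes it went from 0.943 to 0.926. The ratio of *Ncan* went from 1.38 to 0.753, that of *Bcan* from 1.28 to 0.651, that of *Cspg5* from 1.53 to 0.702 and that of *Ptprz1* from 1.94 to 0.802. Members with groups that did not overlap and lower mural values went from 5 of 28 to 9 of the 26 then tested, with *Bcan*, *Ncan*, *Cnp* and *Bcas1* added, where 31.2% of all tested genes did so. Those with higher mural values stayed at 3 (*Cspg4*, *Sox6* and *Vcan*), against 21.2% of all tested genes. *Cspg4* had a ratio of 6.75 and *Mbp* of 0.273 without this library.

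**Figure D4:**
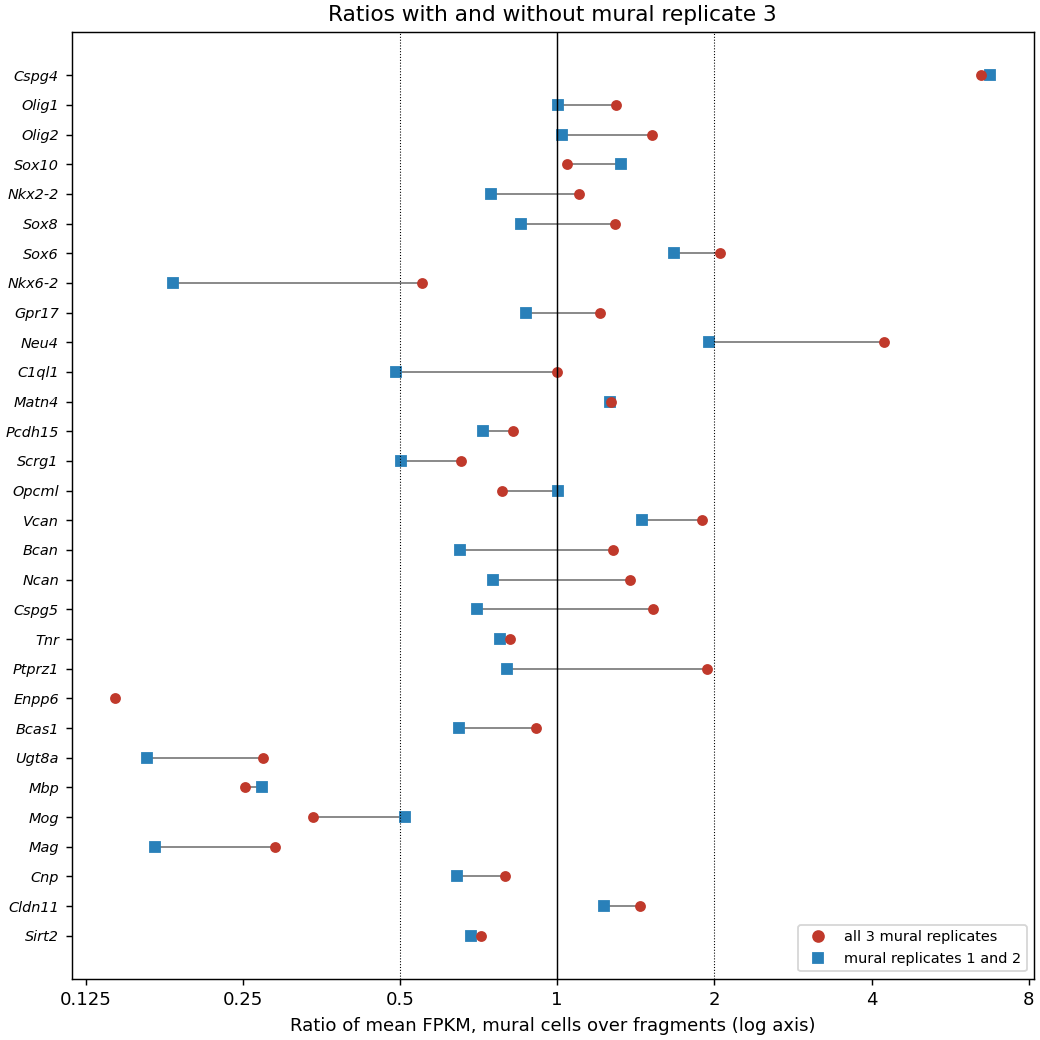
Ratio of mean FPKM, mural cells over fragments, on a log axis, with all 3 mural replicates (red circles) and with mural replicates 1 and 2 (blue squares); dotted lines mark ratios of 0.5 and 2. *Mobp* and *Ermn*, at 0 in all mural samples, are not drawn, nor is the square of *Enpp6*, which was at 0 in mural replicates 1 and 2. The squares of *Bcan*, *Ncan*, *Cspg5* and *Ptprz1* lie left of 1 and their circles right of it, while *Cspg4* stays at 6.47 and 6.75.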

How the data were processed

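RNA was measured in 3 samples of sorted mural cells and 3 of microvascular fragments, grouped by their titles. The deposited values are FPKM per gene, made by the authors: paired reads from libraries of a stranded, ribosomal RNA-depleted total RNA kit were aligned to NCBIM37 with TopHat2 (2.0.4), duplicates were removed with Picard (1.92), and Cufflinks (2.2.1) was used. Whether strand was used in counting, and how libraries were scaled, are not given in the sources used here. Because duplicates were removed without molecular identifiers, levels of abundant genes may be understated.

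Each file held 33484 lines (9 identifiers repeated with the same values), of which 33116 of the 33460 genes matched the NCBIM37 annotation. Values were tested as log2(FPKM + 1) with limma (3.58.1, R 4.3.3, trend in eBayes, two-sided) and Benjamini-Hochberg adjustment over 14801 genes. Fold changes on this scale understate changes of low genes, so ratios of mean FPKM are given too. Sequenced fragments were recovered from the step between low values of genes with 1 transcript; 97.7 to 98.5% of such values were whole within 0.05. Summaries used Python (3.11.15) and pandas (2.3.3). The fit and the recovery were tested on simulated data.

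Members and lists were chosen with earlier results of these data known. Values in every sample are given for *Cspg4*, called members and members with a mean FPKM of at least 5 in either group. Of the other lists, the called genes with the most extreme ratios, *Pdgfra*, and single genes that qualify a statement are named. Some symbols were matched by the older name of the annotation (*Myrf*, *Sapcd2* and *Ncmap*). Alternatives were another pseudocount, scaling, filter, threshold, fold, variance model or gene set, the replicate number as a block, and leaving out each sample.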

Additional observations from a re-analysis of the deposited data

How the results depend on the processing

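*Cspg4* and *Mbp* were called in the same direction under all 17 alternatives that gave a value, with limma adjusted p from 4.2e-05 to 7.0e-04 and from 0.0024 to 0.042. Of 451 values of single members under alternatives, 427 kept their side of the threshold, 22 lost a call (*Mag* and *Enpp6*) and 2 gained one (*Sox6*). No called value reversed, but members that were not called could change sign. Without mural replicate 3 the log2 differences of *Bcan*, *Ncan*, *Cspg5* and *Ptprz1* went from positive to negative. *Mobp* gave no value with the filter at FPKM 5, with genes at 0 in a whole group left out, or without a fragments sample. Depth limits the low members most: 1030000 to 2360000 sequenced fragments lay behind the mural samples.

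Members called lower numbered 4 and fell to 2 (*Mbp* and *Mobp*) with a pseudocount of 0.1, quantile normalization, no filter or an adjusted p under 0.01, to 2 (*Mbp* and *Enpp6*) with genes at 0 left out, and to 1 (*Mbp*) with the filter at FPKM 5. They ranged from 1 to 4 when 1 sample was left out, with 1 without any of the fragments samples and 2 without mural replicate 1 or 2. Members called higher numbered 2 in place of 1 with quantile normalization and without the trend. Members that did not overlap ranged from 3 to 7 (higher, the most without mural replicate 2) and from 4 to 9 (lower, the most without mural replicate 3) with 1 sample left out, and the lower ones numbered 3 with quantile normalization and 2 with the filter at FPKM 5. Their median ratio was 1.40 with quantile normalization and 0.733 to 1.14 with 1 sample left out. Over all genes, 1493 were lower, but 948 with the filter at FPKM 5, 845 at an adjusted p under 0.01 and 607 to 1733 with 1 sample left out (607 to 702 without a fragments sample). Quantile normalization moved the median log2 difference of all genes by 0.133 and the share of calls that were higher from 38.9% to 52.9%. Apart from the smaller number of samples or genes in some of these settings, the cause was not tested.

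The study split each brain between the preparations, so the samples are paired by design. The labels number the replicates but do not say which came from 1 mouse, so the main fit used no pairing and treated all samples as independent. Deviations of same-numbered samples correlated at 0.0818, 0.0203 and 0.0454 across genes, and each mural sample correlated best with its own number. With 3 samples per group these low correlations cannot decide whether equal numbers are the same mouse. With the replicate number as a block, 2244 genes were called in place of 2445 (2162 shared), and the members called lower were 2 (*Mbp* and *Mobp*).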
